A study of Drosophila melanogaster with 4 samples.

Results

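Adult-head cDNA clones are transcripts that were first captured by copying the RNA of adult Drosophila melanogaster heads into DNA, and they were measured here in late embryos with and without functional grh. On the array used here a target is named by the accession its probes were designed to, and the clones were chosen by that name alone: the prefix GH, RH or HL, which marks the adult head libraries, followed by exactly 5 digits. Of the 26228 gene targets on the array, 248 were taken in this way, 126 of them GH clones, 94 RH clones and 28 HL clones, and together they carried 339 of the 32162 gene probes. The clones RH24125, GH02976 and GH16384, which the gene table names as Cpr60D, obst-B and CG9672, meet the same description but were left out by the rule. GH04818 had only spots that were marked as faulty on at least 1 array, so 247 clones had values.

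The mutant embryos carried 2 copies of grhIM, in which a premature stop codon interrupts the DNA-binding domain of grainy head (grh; genotype +; cn, grhIM, bw, sp; +), and were picked as GFP-negative embryos from parents that carried the CyO, Kruppel-GFP balancer. The wild-type embryos were y; cn, bw, sp; +. Both strains thus carried cn, bw and sp, while y was present in the wild-type strain alone, so that an effect of grh and an effect of y or of other background differences cannot be told apart. All embryos were raised at 25°C to late stage 16 or early stage 17, and each genotype had 2 replicates of whole embryos, with about 500 embryos pooled in each. The labels do not say that the pools came from separate crosses, so the p-values measure only the spread between these pools.

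A cDNA library is a sample of the messenger RNA of a tissue, and a clone prefix records where a transcript was first found, not the only place in which it is used. Many transcripts of the adult head belong to neurons, glia, muscle, fat body and general cell metabolism, which the late embryo also has, whereas photoreceptors and other adult sense organs are formed later. GRH is a transcription factor of surface epithelia that is known for its role in the cuticle barrier and in wound repair, and it is also present in neural stem cells.

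The 4 arrays were 1-colour arrays on 1 slide, and 75.9% and 80.0% of all probes were well above background on the grhIM arrays, against 77.6% and 83.1% for wild-type. Gene spots had a median unprocessed brightness of 557 to 629 units per array, and negative controls of 53 to 57.5 units. Levels are given below as log2 normalised intensity, on which a difference of 1 is a 2-fold change. The grh clone LD38807 was at 9.67 and 9.84 in grhIM and at 8.75 and 8.89 in wild-type, which does not check the labels because a stop codon can leave the transcript in place. Of the embryo marker lists, 3 cuticle genes and 1 neuronal gene could be named on the whole array, and these targets were well above background on all 4 arrays, while no photoreceptor, glial, clock, muscle or yolk protein marker could be named.

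Most adult-head clones gave a signal in late embryos of both genotypes. A clone was counted as expressed in a genotype if its brightest probe was marked as well above the local background on both arrays of it. By this measure 214 of 247 clones (86.6%) were expressed in grhIM and 224 (90.7%) in wild-type, and 214 were expressed in both. The share per array was 87.0% and 91.5% in grhIM and 90.7% and 94.3% in wild-type, so the arrays of the genotypes overlapped, and the second array of each genotype had the higher share, as it did over all probes. By this measure no clone was expressed in grhIM alone, though GH25188 and RH38275 had a signal on 1 grhIM array and on no wild-type array. In 3 clones both wild-type arrays but neither grhIM array gave a signal, in 18 the signal was seen on some arrays only, and 12 (4.86%) were not well above background on any array. Of all 26219 targets with values, 99 had a signal on both grhIM arrays alone and 326 on both wild-type arrays alone. A further 2331 had it on some arrays only and 4343 (16.6%) on none.

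**Figure D1:**
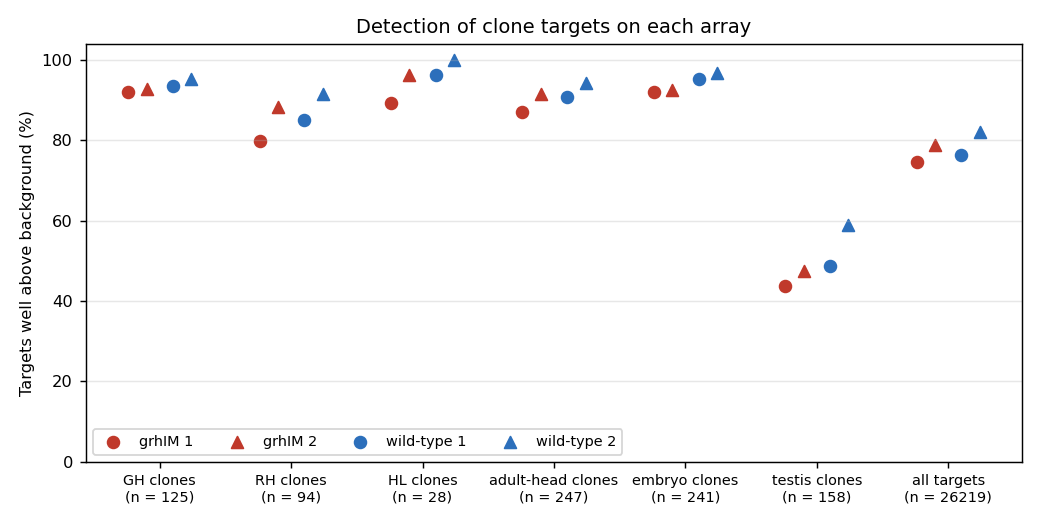
Percentage of targets whose brightest probe was well above background on each array, for the GH, RH and HL clones, all adult-head clones, clones of embryo libraries (LD, RE), clones of a testis library (AT) and all targets of the array. Each point is 1 array, red for grhIM and blue for wild-type, and the adult-head clones lie between 87.0% and 94.3%, near the embryo clones and far above the testis clones.

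The libraries differed in how many of their clones were seen. GH clones were expressed in both genotypes in 91.2% of cases (114 of 125), HL clones in 89.3% (25 of 28) and RH clones in 79.8% (75 of 94). The 12 clones with no signal on any array were 5 GH and 7 RH clones, with values between 1.37 and 3.71 over the 4 arrays. Among the other clone libraries of the array, 92.1% of 241 embryo clones were expressed in both genotypes, against 41.1% of 158 testis clones and 72.9% of all 26219 targets with values. These shares describe the probes on this array, and no test was made of the difference between libraries. On each array RH clones had a lower share than GH, HL and embryo clones and a higher share than all targets together, and testis clones had the lowest share. HL clones were below GH and embryo clones on the first grhIM array and above both on the other 3 arrays.

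In the comparison of genotypes, more adult-head clones were lower than higher in grhIM embryos. A target was tested if its probe was well above background on both arrays of at least 1 genotype, and it was called at a Benjamini-Hochberg adjusted p under 0.01 from limma over all 20340 tested targets. Of 224 tested clones 33 were called (14.7%), beside 9.23% of all tested targets. Of these, 6 were higher in grhIM (2.68% of those tested, beside 4.02% of all targets) and 27 were lower (12.1%, beside 5.21%). All 214 clones expressed in grhIM were also expressed in wild-type, so the filter admitted clones through wild-type alone and none through grhIM alone. Such clones tend to be lower in grhIM by the way they were admitted. When all 4 arrays had to be well above background, 28 of 214 clones were called (13.1%, beside 8.53% of all targets). They were 6 rises and 22 falls, so 21.4% were rises, beside 45.3% of all 1630 targets called under this filter. In all 33 called clones both grhIM values lay on the same side of both wild-type values. The calls were made on these same values, so this separation, here and for single called clones below, is no separate support. In whole embryos, fewer cells of a type and less RNA per cell cannot be told apart.

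The count of calls depended on single arrays. Without the first wild-type pool no clone was called by limma (113 clones had an unadjusted p under 0.05, and the smallest adjusted p was 0.0124), and no other target of the array was called either. Leaving out any other single pool also gave fewer calls than all 4 pools, both among the clones and over all targets. Of the called clones 18.2% were higher in grhIM, beside 43.6% of all called targets. Under the other settings with all 4 pools the share was between 17.1% and 25.4%, beside 37.3% to 46.4% of all called targets. The exception was another background correction, with 28.6% (4 higher and 10 lower). There the share over all called targets was 33.3%, which is close to that of the clones. A permutation of 2 against 2 pools cannot give an exact two-sided p below 0.333, so single clones were tested only in the fit across all targets.

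The sizes of the changes and the spread between pools are given as a description, since the calls were made on both. Over the tested clones the median standard deviation between pools was 0.08 in grhIM and 0.14 in wild-type, while the smallest called difference was 0.81 and the median size of the called differences was 1.63. A change of at least 2-fold was seen in 29 of the 33 called clones, and of at least 4-fold in 9. Of all 1878 called targets, 1648 changed at least 2-fold and 689 at least 4-fold, so these sizes are not particular to the clones. The 191 clones that were not called included 146 with a fitted difference of less than 0.5 in size. The median difference of all tested clones, grhIM minus wild-type, was -0.09 (quartiles -0.50 and 0.20), beside -0.01 (quartiles -0.28 and 0.24) over all tested targets. The median mean level was 10.28 in called clones and 10.24 in clones that were not called.

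**Figure D2:**
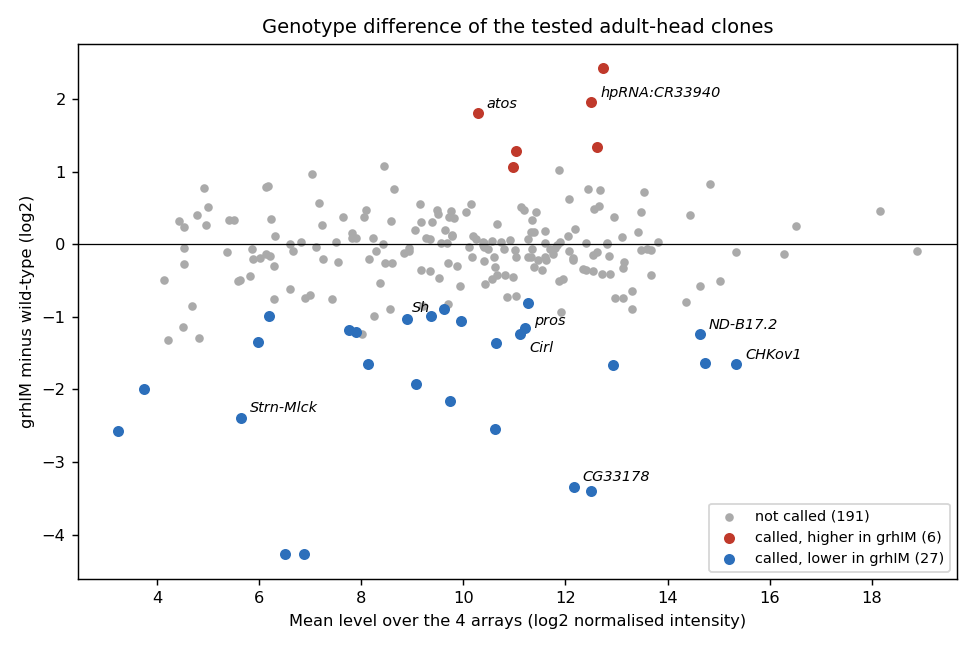
Fitted difference between grhIM and wild-type (log2, vertical axis) against the mean level over the 4 arrays (log2 normalised intensity, horizontal axis) for the 224 tested adult-head clones. Red points were called higher in grhIM (6), blue points were called lower (27) and grey points were not called (191); the called clones lie along the whole range of levels except the very brightest, and those with a gene name are labelled.

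The libraries gave calls in both directions apart from HL. Over all tested targets 4.02% were called higher and 5.21% lower in grhIM, together 9.23%. Of 117 tested GH clones 3 were higher (2.56%) and 16 lower (13.7%). Of 80 RH clones 3 were higher (3.75%, near the share of all targets) and 7 lower (8.75%). Of 27 HL clones none was higher and 4 were lower (14.8%). Of 230 tested embryo clones 22 were called (9.57%), 9 higher and 13 lower, with a median difference of -0.02. Of 80 tested testis clones 15 were called (18.8%), 7 higher and 8 lower, with a median of -0.07. No test was made between the libraries.

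A gene name was available for 47 of the 247 clones (19.0%), from the table of RefSeq genes, and 45 of these were tested. The names cover ion channels and neural receptors, transcription and chromatin factors, mitochondrial proteins, proteins of muscle and the cytoskeleton, and signalling proteins. Of the 45, 2 were higher in grhIM (4.44%, beside 4.02% of all tested targets) and 7 were lower (15.6%, beside 5.21%). The other 36 had differences between -0.99 and 1.02, 23 of them below 0 and 13 above. The role groups below are small, and their counts of calls are only a description. Of the gene lists of head functions that were looked for (neuronal, photoreceptor, glial, olfactory and gustatory, clock, fat body, detoxification, immunity, cuticle, muscle), only the neuronal list had a member among these clones, which was Shaker (Sh). The lists could hardly be filled, since only 1.38% of all targets had a name. The cuticle clones Cpr60D and obst-B were left out by the rule. Empty lists therefore do not show that such genes are absent from the clones.

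Ion channels and neural receptors were represented by 6 clones, of which 5 were tested, and 2 were lower in grhIM while none was higher. Sh, the voltage-gated potassium channel that repolarises nerve and muscle (GH03046), was at 8.37 and 8.38 in grhIM and at 9.33 and 9.47 in wild-type, and both mutant pools lay below both wild-type pools. Its difference was -1.03 ± 0.12 (SE, adjusted p = 0.00534). Cirl, the latrophilin-type adhesion receptor of sensory neurons (GH07331), was at 10.43 and 10.55 in grhIM and at 11.59 and 11.86 in wild-type, a difference of -1.24 ± 0.14 (SE, adjusted p = 0.00563), again without overlap. The call of Sh was lost when any single pool was left out (adjusted p between 0.0169 and 0.0390, differences between -1.09 and -0.96), and that of Cirl was lost without the first wild-type pool (-1.37, adjusted p = 0.0219), the second wild-type pool (-1.11, adjusted p = 0.0171) or the first grhIM pool (-1.17, adjusted p = 0.0284). Both also missed the threshold with no normalisation between arrays, with scaling to spike-in RNA, with another background correction and when dim probes were tested too, at an adjusted p between 0.0137 and 0.0322 for Sh and between 0.0111 and 0.0184 for Cirl.

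The other channels differed less. The cation channel Trpm (GH04950) was at 10.41 and 10.48 in grhIM and at 10.84 and 10.89 in wild-type, and its difference of -0.42 ± 0.11 was not called (SE, adjusted p = 0.0589). The calcium-activated potassium channel slo (GH10751) had a difference of -0.22 and the glutamate-gated chloride channel GluClalpha (HL07853) of -0.14, which were not called (adjusted p = 0.224 and 0.604). The values of GluClalpha overlapped between genotypes. The chloride channel pHCl-1 (GH21757) was not well above background on any array and was not tested.

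Among 7 transcription and chromatin factors, 1 was lower and 1 was higher in grhIM. Prospero (pros, HL08040), the homeodomain factor that drives the daughters of neural stem cells towards differentiation, was at 10.67 and 10.60 in grhIM and at 11.64 and 11.93 in wild-type. Both grhIM pools were lower than both wild-type pools, and the difference was -1.15 ± 0.14 (SE, adjusted p = 0.00693). A second probe of the same clone gave 10.62 and 10.58 in grhIM and 11.59 and 11.85 in wild-type. The call was lost when any pool was left out (differences between -1.30 and -1.01, adjusted p between 0.0151 and 0.0284) and with the same 4 settings as for Sh and Cirl (adjusted p between 0.0129 and 0.0233).

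Atossa (atos, GH05710), a nuclear factor known from migrating embryonic macrophages, was higher in the mutant. It was at 11.01 and 11.36 in grhIM and at 9.37 and 9.39 in wild-type, and its 2 other probes had differences of 1.75 and 1.55, beside 1.81 ± 0.15 for the brightest (SE, adjusted p = 0.00218). All 3 probes thus moved in the same direction and by a similar amount. Without the first or the second wild-type pool the difference of atos was 1.80 or 1.82 and the adjusted p was 0.0305 or 0.0168, and with another background correction the adjusted p was 0.0127.

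The remaining 5 factors were not called. The difference was -0.31 for mod(mdg4), a chromatin insulator protein, -0.30 for the homeodomain factor cut (ct), -0.17 for the RNA polymerase subunit Polr2F, 0.36 for E(Pc), a subunit of the Tip60 acetyltransferase complex, and 0.62 for Glut4EF (GH25505). Glut4EF was at 12.35 and 12.43 in grhIM and at 12.45 and 11.08 in wild-type, so 1 wild-type pool lay with the mutant pools and the other far below them. Its difference was 1.31 without the first wild-type pool and -0.07 without the second.

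Of 5 clones of mitochondrial proteins, 1 was lower in grhIM. This was ND-B17.2 (GH12382), an accessory subunit of respiratory complex I, at 14.01 on both grhIM arrays and at 15.21 and 15.28 in wild-type, a fold change of 2.35. The replicates of each genotype were close together, and the difference was -1.23 ± 0.11 (SE, adjusted p = 0.00251). It was not called without the first grhIM pool (-1.22, adjusted p = 0.0183), the first wild-type pool (-1.27, adjusted p = 0.0201) or the second wild-type pool (-1.21, adjusted p = 0.0115), nor when dim probes were tested too (adjusted p = 0.0102). The other 4 had no called change: the mitochondrial ribosomal proteins mRpL14 (-0.43 ± 0.18) and mRpL52 (-0.08 ± 0.11), the ferredoxin Fdx1 (0.06 ± 0.16) and the aspartate-glutamate carrier aralar1 (0.20 ± 0.15; differences with SE). A second target on the array for mRpL52, named by a RefSeq transcript, gave -0.03 ± 0.11.

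Muscle and cytoskeleton were represented by 5 clones, and 1 of these was lower in grhIM. Strn-Mlck (RH74685), which encodes giant titin-related proteins of muscle with a myosin light chain kinase domain, was at 4.28 and 4.63 in grhIM and at 6.67 and 7.02 in wild-type, a difference of -2.39 ± 0.19 (SE, adjusted p = 0.00189). Only 1 of the grhIM arrays was well above background for it, and both wild-type arrays were. This value was sensitive to background: it was -0.76 (adjusted p = 0.117) with another background correction and -1.05 (adjusted p = 0.00245) in the authors' normalised table. It was not called without the first (-2.60, adjusted p = 0.0209) or the second wild-type pool (-2.20, adjusted p = 0.0172).

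The other 4 did not pass the threshold. Cdep (RH50880), a FERM-domain guanine exchange factor, was at 7.69 and 7.83 in grhIM and at 8.91 and 8.59 in wild-type, a difference of -0.99 ± 0.15 with an adjusted p of 0.0136 (SE). Its genotypes did not overlap, but the p missed the threshold. Cdep passed in the authors' normalised table (-0.81, adjusted p = 0.00715) and with the trend and robust settings of limma (adjusted p = 0.00874). It also passed with a term for the replicate number in limma (adjusted p = 0.00764). The microtubule-associated protein Jupiter had a difference of -0.26, the kinesin cargo adaptor Unc-76 of -0.06 and the kinase adaptor Mob2 of 0.12, none of them called.

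None of the 4 signalling and growth clones was called in the main fit. Gbp3 (RH17470), a growth-blocking peptide of the insect cytokine family, was at 12.29 and 12.48 in grhIM and at 11.06 and 11.67 in wild-type. Both mutant pools were above both wild-type pools, but the wild-type pools differed by more than the mutant pools did. The difference of 1.02 ± 0.23 was not called (SE, adjusted p = 0.0391). With a term for the replicate number in limma Gbp3 was called (adjusted p = 0.00624). The Hedgehog receptor patched (ptc, RH36596) had a difference of 0.48 and its other tested probe of 0.44. The growth inhibitor charybde (chrb, GH09771), known for its induction by hypoxia, was at 14.74 and 14.80 in grhIM and at 15.12 and 15.42 in wild-type, a difference of -0.50 ± 0.15 (SE, adjusted p = 0.0753). Evi5, a regulator of Rab11, gave -0.24 by its head clone GH08923 and 0.08 by the embryo clone LD11130, and neither was called.

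**Figure D3:**
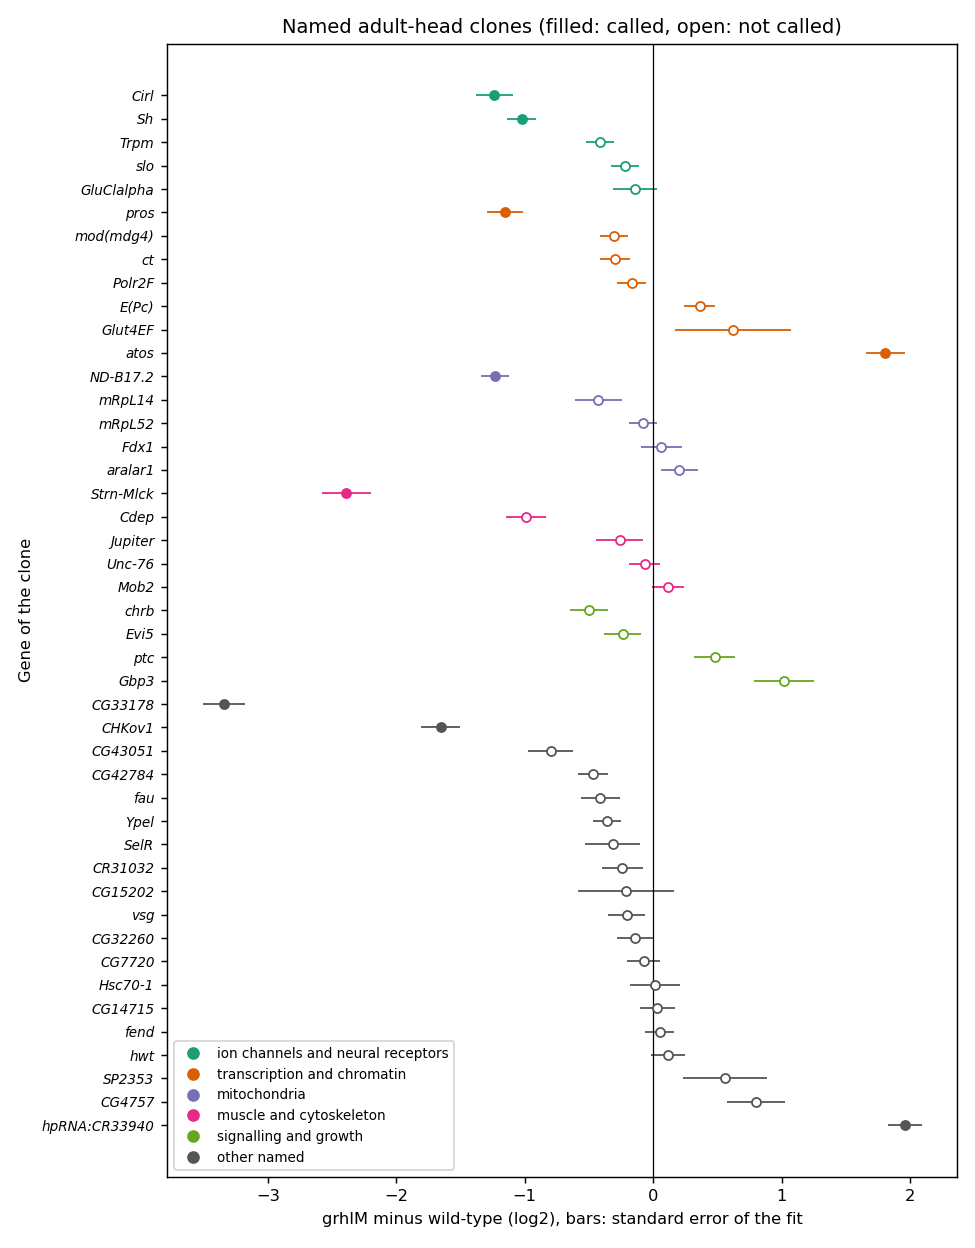
Fitted difference between grhIM and wild-type (log2, horizontal axis) for the 45 tested adult-head clones with a gene name, ordered by role, with bars for the standard error of the fit. Filled points were called; the 7 called falls lie between -3.34 (CG33178) and -1.03 (Sh), the 2 called rises at 1.81 (atos) and 1.96 (hpRNA:CR33940), and the open points between -0.99 and 1.02.

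The remaining 20 named clones, 19 of them tested, held 3 of the 9 calls. CG33178 (RH14671) was at 10.55 and 10.42 in grhIM and at 14.01 and 13.65 in wild-type, the largest difference among the named clones. CHKov1 (GH03753), known for an allele linked to resistance against a virus and insecticides, was at 14.52 and 14.51 in grhIM and at 16.00 and 16.34 in wild-type. The hairpin RNA gene hpRNA:CR33940 (RH57193), of a class whose folded transcripts are cut into small interfering RNAs, was at 13.39 and 13.58 in grhIM and at 11.46 and 11.58 in wild-type. The genotypes were separate in all 3, with CG33178 and CHKov1 low and the hairpin RNA high in both mutant pools.

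The fitted differences were -3.34 ± 0.16 for CG33178 (adjusted p = 0.000539), -1.65 ± 0.15 for CHKov1 (adjusted p = 0.00275) and 1.96 ± 0.13 for hpRNA:CR33940 (adjusted p = 0.00112, all with SE). All 3 passed the threshold except when the first wild-type pool was left out, where the differences were -3.17, -1.83 and 1.89 and the adjusted p was 0.0124, 0.0147 and 0.0189, and, for CHKov1, when dim probes were tested too (adjusted p = 0.0106). The 16 tested clones that were not called had differences between -0.80 (CG43051) and 0.80 (CG4757), with the heat shock cognate Hsc70-1 at 0.02 and the methionine sulfoxide reductase SelR at -0.32. Of these, CG4757 was called with a term for the replicate number in limma (adjusted p = 0.00780). The pseudogene CR9337 (GH05725) was at 2.31 and 2.16 in grhIM and at 4.21 and 4.20 in wild-type, but it was well above background on only 1 wild-type array and was not tested.

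Of the 33 calls, 24 were clones without a gene name, 4 of them higher in grhIM and 20 lower. They were 13.4% of the 179 tested clones without a name, beside 9.23% of all tested targets. The share called higher was 2.23%, beside 4.02%, and the share called lower was 11.2%, beside 5.21%. HL05792 was at 10.74 and 10.86 in grhIM and at 14.49 and 13.92 in wild-type, which is 10.6-fold lower in the mutant (difference -3.40 ± 0.22, SE, adjusted p = 0.00102). GH16383 was at 9.45 and 9.26 in grhIM and at 11.99 and 11.81 in wild-type, 5.83-fold lower (difference -2.54 ± 0.13, SE, adjusted p = 0.000645). These were the largest falls among unnamed clones that were well above background on all 4 arrays. Both calls were lost only without the first wild-type pool, with differences of -3.12 and -2.46 and an adjusted p of 0.0124 and 0.0147.

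The largest rises without a name were those of GH01616 and GH11368. GH01616 was at 14.29 and 13.62 in grhIM and at 11.32 and 11.74 in wild-type, 5.38-fold higher in the mutant (difference 2.43 ± 0.27, SE, adjusted p = 0.00532). GH11368 was at 13.32 and 13.28 in grhIM and at 11.91 and 11.99 in wild-type, 2.55-fold higher (difference 1.35 ± 0.11, SE, adjusted p = 0.00200). In both the mutant pools were above the wild-type pools, with a wider spread within each genotype for GH01616. Without the first or second wild-type pool GH01616 was not called (2.21, adjusted p = 0.0476, and 2.63, adjusted p = 0.0232), nor when dim probes were tested too (adjusted p = 0.0171), and GH11368 was not called without the first grhIM pool (1.34, adjusted p = 0.0128) or the first wild-type pool (1.30, adjusted p = 0.0199).

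**Figure D4:**
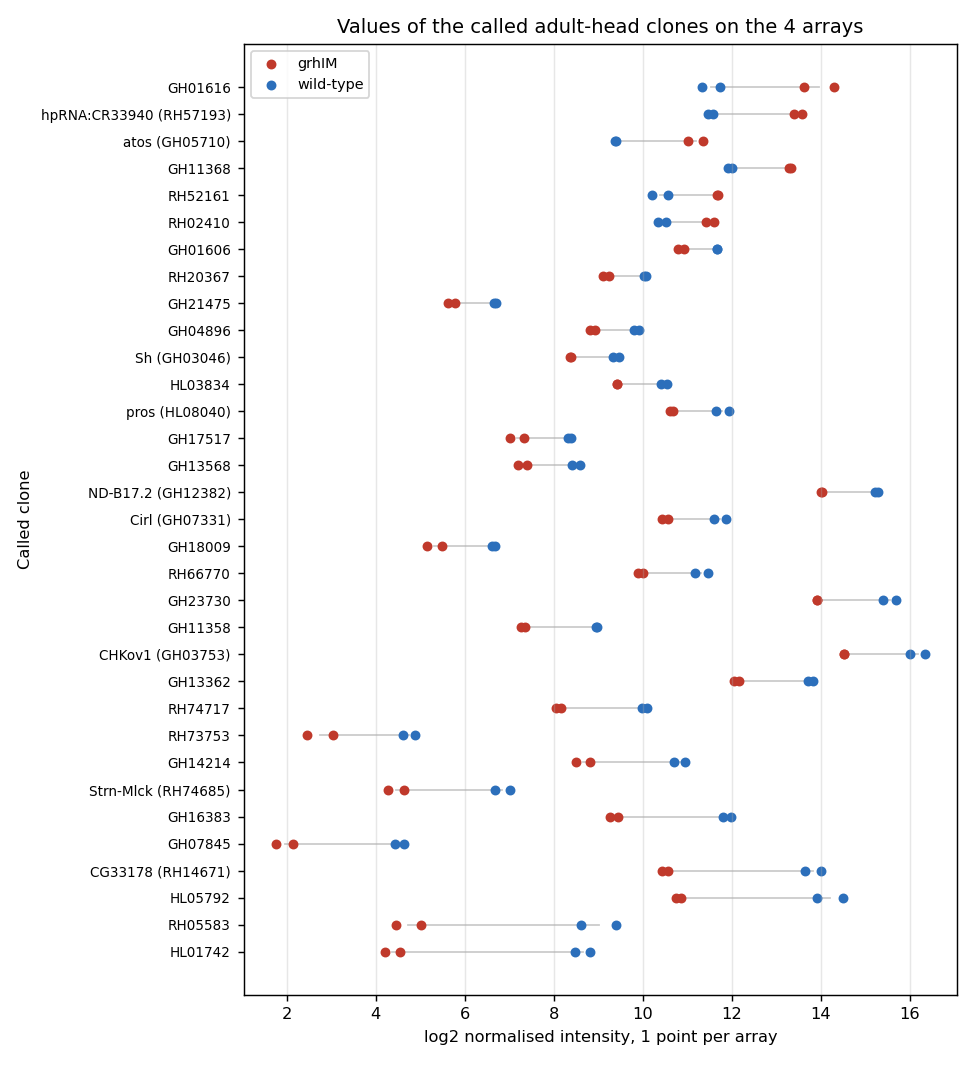
Values of the 33 called adult-head clones on the 4 arrays (log2 normalised intensity, horizontal axis), 1 row per clone, ordered by the fitted difference with the highest rise at the top. Red points are the 2 grhIM pools, blue points the 2 wild-type pools and grey lines join the genotype means. The clones were called on these values, and the genotypes are separate in each row, with grhIM to the right in the top 6 rows and to the left in the other 27.

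The following clones were singled out after their values were seen. The largest fitted differences were those of HL01742 and RH05583, which were close to background in the mutant, where 1 of 2 arrays gave a signal. HL01742 was at 4.54 and 4.20 in grhIM and at 8.82 and 8.47 in wild-type, and RH05583 was at 4.46 and 5.01 in grhIM and at 9.40 and 8.62 in wild-type. Both were low in the mutant, by a fitted difference of -4.27 each (adjusted p = 0.000429 and 0.00156). Their other probes differed from these values: that of RH05583 gave -1.93, and that of HL01742, a dim one, gave 4.34 and 4.15 in grhIM and 2.87 and 3.51 in wild-type, which is the opposite direction. Of 6 called clones with a second tested probe, HL01742 was the only one in which another probe went the other way. With another background correction the differences were -1.59 for HL01742 and -1.79 for RH05583 and neither was called (adjusted p = 0.0513 and 0.0269), nor were they without the first wild-type pool (-4.10 and -3.84, adjusted p = 0.0133 and 0.0189). In the authors' table they were -2.37 and -2.68, and as a mean over the probes of a clone -1.61 and -3.105, all of them called.

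Signal on both wild-type arrays but on neither grhIM array, by any probe, was found for 3 clones, and 2 of these were called. Over the whole array 258 of 420 tested targets with 1 genotype at background were called. As a share of all tests, such calls were 2 of 224 for adult-head clones, beside 1.27% for all targets. For such clones only a lower limit of the fold can be given: the wild-type mean was set over the lowest signal of any probe well above background on the grhIM arrays, or over the clone's own signal where that was higher. With the main background correction GH07845 was at least 2.59-fold and RH73753 at least 2.92-fold lower in grhIM (limma, adjusted p = 0.00121 and 0.00579). Both were tested only because the wild-type arrays were well above background, so these p-values are no separate support for a fall. The limits hold for this background correction only. The third, RH18724, was at 3.72 and 3.39 in grhIM and at 4.49 and 5.25 in wild-type and was not called (adjusted p = 0.0344). With another background correction the fitted differences of GH07845 and RH73753 were -0.22 and -0.11, beside -2.58 and -1.99, and neither was called, nor was RH73753 when dim probes were tested too (adjusted p = 0.0184). Without the first wild-type pool neither was called (adjusted p = 0.0199 and 0.0526), and RH73753 was not called without the second wild-type pool either (adjusted p = 0.0341).

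The other calls without a name were 2 rises and 14 falls. RH52161 was at 11.67 and 11.69 in grhIM and at 10.21 and 10.56 in wild-type, and RH02410 at 11.41 and 11.60 in grhIM and at 10.51 and 10.35 in wild-type, differences of 1.29 and 1.07 (adjusted p = 0.00628 and 0.00690). Without 1 pool RH02410 was not called in any of the 4 fits (adjusted p between 0.0229 and 0.0332), and RH52161 was not called without the first grhIM pool (adjusted p = 0.0228) or the first wild-type pool (adjusted p = 0.0230). RH52161 was not called with spike-in scaling (adjusted p = 0.0243), with no normalisation (adjusted p = 0.0113) or when dim probes were tested too (adjusted p = 0.0199), and RH02410 was not called with spike-in scaling or dim probes (adjusted p = 0.0216 in both) or with another background correction (adjusted p = 0.0136). The 14 falls were between 1.75-fold and 4.47-fold, with mean levels between 5.98 and 14.73. The clone nearest to the threshold inside it had an adjusted p of 0.00999, and the nearest outside it 0.0101.

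By a mean over the 4 arrays, the 5 brightest named clones were CHKov1, chrb, ND-B17.2, CG43051 and CG14715, and CHKov1 and ND-B17.2 were among the called falls. Brightness depends on the probe as well as on the transcript, so this order says nothing of which transcript was most abundant. CG43051 (GH14785) was at 13.89 and 14.01 in grhIM and at 14.54 and 14.96 in wild-type (difference -0.80 ± 0.18, SE, adjusted p = 0.0358). CG14715 (RH50927) was at 13.73 and 13.94 in grhIM and at 13.73 and 13.88 in wild-type, and its genotypes overlapped.

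The replicates differed more in wild-type than in grhIM, for these clones as for the whole array. Over all 20340 tested targets the median gap between the pools of a genotype was 0.11 in grhIM and 0.20 in wild-type. A gap of at least 1 was seen in 163 of these targets in grhIM and in 294 in wild-type. Over the tested clones the median gap between the pools of a genotype was 0.12 in grhIM and 0.20 in wild-type, and 0 clones in grhIM but 3 in wild-type had a gap of at least 1. These 3 were Glut4EF, CG15202 (GH13342; 11.42 and 11.29 in grhIM, 11.02 and 12.13 in wild-type) and RH57246 (11.13 and 11.34 in grhIM, 12.13 and 10.698 in wild-type). In each of them the mutant pools lay between the wild-type pools, and none was called.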

How the data were processed

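The deposited scanner files hold processed spot intensity from the authors' scans, background-subtracted within each array; the headers name Agilent Feature Extraction 10.7.3.1 and a grid of build dm3. A deposited table holds the authors' normalised intensity for 24684 probes, with 219 of the tested adult-head clones. Flags in the deposited files, coded 0 or 1 and of another kind than intensity, mark faulty spots and spots well above background; no spot was saturated. Control, non-uniform and outlier spots were dropped (15 of 32162 probes were lost) and each probe's remaining spots averaged. Cyclic loess (span 0.7, 3 iterations) was run on the log2 intensities of all 4 arrays, because the study's own normalisation was of the loess type. A probe was well above background where at least 50% of its spots were. Each target was represented by its brightest probe. The genotype comparison used limma 3.58.1 (R 4.3.3), with genotype as the only term, and p-values were adjusted by Benjamini-Hochberg. The fit was tried on simulated data with independent noise for each probe. Such data hold no effect shared by all probes of a pool, so they do not bear on the loss of calls without 1 pool.

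Names came from a RefSeq gene table (Release 6), which named 1.38% of all targets. By rule, the named clones to report were the called ones, the 5 brightest and those of the gene lists. The unnamed ones were the 2 largest rises and 2 largest falls well above background on all 4 arrays. Clones measured in 1 genotype only were also reported. All other single clones, such as the uncalled members of the role groups, were added after their values were seen. The members and lists were chosen with earlier results of these data known, and the role groups after the clones' values were seen. Alternatives were other normalisations, background corrections, filters, probe rules and thresholds, leaving out each pool, and a replicate block. Coordinates and sequences were not used.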

Additional observations from a re-analysis of the deposited data

How the results depend on the processing

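With 2 pools per genotype, calls near the threshold moved with single pools. The count of called clones, 33, was between 21 and 38 with other scalings or the authors' table (30 at the 75th percentile, 32 quantile, 23 unscaled, 21 with spike-in scaling, 38 in the table), 14 with normexp background correction, 16 where dim probes were tested too, 28 to 42 with the other filters, probe rules or variance settings, and 63 at an adjusted p under 0.05. Over all targets these counts were 1878, 1894 at the 75th percentile, 1889 quantile, 1739 unscaled and 1538 with spike-in scaling. They were 2206 in the authors' table, 534 with normexp, 883 with dim probes and 4225 at an adjusted p under 0.05. The other filters, probe rules or variance settings gave 1630 to 2380 targets. With the replicate block it was 46 (20.5% of tested clones, beside 14.6% of all targets, 2974), which added Cdep, Gbp3 and CG4757 to the called named clones (adjusted p = 0.00764, 0.00624 and 0.00780); the labels give pools the same numbers but no shared batch, and the deviations of same-numbered pools correlated at 0.25. With the 3 clones left out by the rule, a setting chosen after seeing the data, it was 36 of 227. Leaving out 1 pool gave 0 to 27 calls, 0 to 6 called clones measured in 1 genotype only (2 with all pools, 0 with normexp and in the authors' table) and 213 to 220 clones expressed in both genotypes. The median difference was -0.20 with spike-in scaling, which moved the median of all targets to -0.12, and between -0.13 and -0.06 otherwise. Of the comparisons for single clones, 799 kept direction and call, 50 lost and 10 gained a call, and 19 changed sign, all in clones that were not called. With spike-in scaling these were Hsc70-1 (-0.087), CG14715 (-0.068), fend (-0.051) and Fdx1 (-0.039), and with the mean over probes CG7720 (0.78). Leaving out 1 pool gave differences between -0.0028 and 0.24 for hwt, -0.15 and 0.0061 for Unc-76, -0.77 and 0.34 for CG15202, -0.27 and 0.00093 for CG32260, -0.072 and 1.31 for Glut4EF, -0.35 and 0.055 for GluClalpha, -0.16 and 0.014 for CG7720, -0.24 and 0.27 for Hsc70-1, -0.066 and 0.15 for CG14715, -0.0067 and 0.11 for fend, and -0.082 and 0.21 for Fdx1. The cause was not tested. The 12 clones below background on all arrays could not be compared.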
